A study of Mus musculus with 35 samples.

Results

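Mouse cells labelled OB were compared with cells labelled ODR 1 day into reprogramming, both grown without the growth factor BMP4. The comparison uses 4 of the 35 RNA sequencing libraries of the series, 2 labelled OB and 2 labelled ODR, chosen by their labels alone. Per the labels, both are reprogramming cells that were infected with the factors their names stand for and moved to the medium iCD1. The labels expand neither name. The series title and design text name Kdm2b, Oct4 (gene symbol Pou5f1) and the variant Polycomb complex PRC1.1, and ODR is taken here as the control for OB. A further combination, OA, has 2 libraries of the same day. OB and ODR were sampled again at day 6, with 4 and 2 libraries used, and at day 14, with 3 libraries each. The fit behind the p-values also holds OA at days 6 and 14. It further holds day 6 libraries grown with BMP4 (10 ng per ml), 2 of OB and 1 of ODR. Of the 21350 genes in the deposited table, the 12227 with a value of 10 or more in at least 2 of the 4 libraries were compared.

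Kdm2b is a chromatin protein with a CXXC zinc finger, a fold that binds DNA rich in unmethylated CpG such as the CpG islands at many promoters. There it recruits PRC1.1, which places ubiquitin on histone H2A, a mark linked to the silencing of developmental genes. Retinoic acid, made from vitamin A, turns on differentiation genes through nuclear receptors, and the Cyp26 enzymes break it down. Sox1 is among the earliest transcription factors of the neural plate, and Nefm is a neurofilament subunit of nerve cells.

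The values are whole numbers on the authors' normalized scale and are called deposited values here. They are not read counts, so the depth of each library is unknown. Totals ran from 4368162 to 4394234 in the 4 libraries, and a ceiling of 18690 was shared by all columns of the table. The ceiling is held by 9 or 10 genes in each library and the step below it, at 9294 to 9314, by 7 to 10, so a fold change that touches these steps is set by the scale and bounds nothing. In the table, 2 pairs of columns were identical at every gene, and the shared column labelled ODR day 6 replicate 3 was left out. The library labelled OA day 14 replicate 2 goes against its label for Kdm2a, the paralog of Kdm2b, with 721 against 18690 in both other OA libraries of that day. It enters only the estimate of spread, and counts without it are given. No label says whether replicates came from separate infections, so the p-values reflect variation among libraries that may be technical.

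Kdm2b, the gene of the series title, was at the top of the scale in both OB libraries. Kdm2b (ENSMUSG00000029475, chr5:122870665-122989823, minus strand, mm10) had values of 18690 and 18690 in the OB libraries, against 308 and 460 in the ODR libraries. Both OB values are at the ceiling and the groups do not overlap. The log2 fold change of OB over ODR, on log2(value + 1), was 5.63 ± 0.27 (SE, n = 2 libraries each; limma, Benjamini-Hochberg adjusted p = 6.23e-10). Pou5f1, the Oct4 gene, sat at 18690 in all 4 libraries, which bounds no difference. Kdm2a had 1130 and 920 in OB, against 1254 and 814 in ODR, and these values overlap. The deposited values do not tell transcripts of an introduced factor from those of the cells' own gene.

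The other PRC1.1 subunits on the list did not pass the test. The list holds 10 genes, all measured, of which Kdm2b alone was called and the median log2 fold change was 0.06. Bcor, the scaffold that links Kdm2b to Pcgf1, had 472 and 326 in OB, against 244 and 214 in ODR. The groups do not overlap, and the difference of 0.78 ± 0.20 missed the threshold (limma adjusted p = 0.083). The remaining 8 members, among them the ubiquitin ligases Ring1 and Rnf2 and the adaptors Rybp and Yaf2, lay between -0.17 and 0.23. Among 12 genes with a CXXC zinc finger, again only Kdm2b was called. No gene was called among 11 subunits of canonical PRC1, with a median of -0.19, or among 11 of PRC2, which methylates histone H3, with a median of 0.03.

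At an adjusted p below 0.05, 78 genes were called higher in OB than in ODR, 0.638% of the 12227 tested, and 29 were called lower, 0.237%, together 107 or 0.875% (limma with Benjamini-Hochberg adjustment). In bulk RNA, more cells of a type and more RNA per cell cannot be told apart. The higher genes had a median log2 fold change of 2.35, and 69 of them exceeded 1, where the median of all genes was -0.02. Their median level was 71.75 in OB, against 10.75 in ODR. Of the 78, 32 reached 10 only in the OB libraries, as did 133 of all 12227 genes, and such genes had to differ to be kept. The lower genes had a median of -1.0, with a median level of 72 in OB, against 156 in ODR. Of these, 6 reached 10 only in the ODR libraries, as did 94 of all 12227 genes. At an unadjusted p below 0.05, 1124 genes differed.

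These counts depend on single libraries. Leaving out OB replicate 1 or ODR replicate 2 gave fewer calls in both directions, and not all of these are among the 78 and 29. Without OA day 14 replicate 2 there were 177 higher and 72 lower genes, which include all 78 and all 29. A fit of the 4 libraries alone called 7 higher and 6 lower, of which 6 and 2 are among the 78 and 29. The day 1 libraries alone gave 19 and 5, of which 12 and 1 are. Of the 39 called genes named here, 6 kept their call without each of the 4 libraries in turn, namely Kdm2b, Cyp26a1, Nrxn2, Tbc1d30, Prl8a6 and Prl8a8. In the same leave-outs, 32 lost it without OB replicate 1 and 33 without ODR replicate 2. Of the 6 that kept their call, Cyp26a1, Tbc1d30, Prl8a6 and Prl8a8 were at 0 throughout at least 1 group of the fit. Such groups keep the pooled spread small. Tbc1d30, Prl8a6 and Prl8a8 lost the call with the day 1 libraries alone. Groups at 0 occurred in 17.9% of the higher and 13.8% of the lower genes, against 2.05% of genes not called. OB replicate 1 had the higher value of its pair in 61 of the 78 higher genes (78.2%), against 49.3% of all genes tested. In OA, replicate 1 was higher in 56 of the 78 (71.8%, against 48.9% of all genes), and in ODR in 43 (55.1%, against 48.9%). The part of this order in the calls was not tested.

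**Figure D1:**
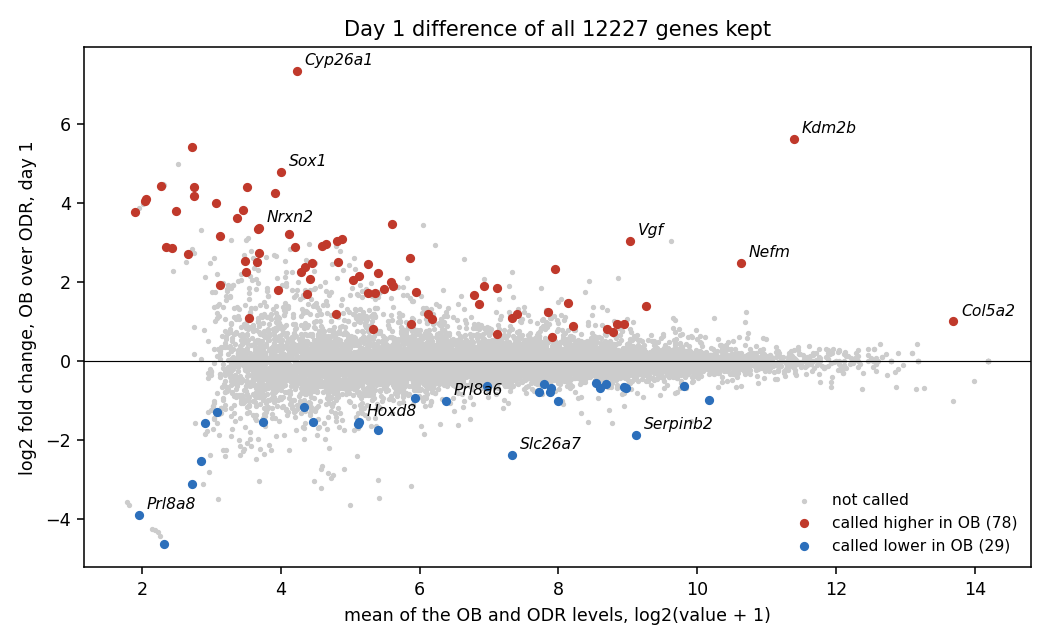
Log2 fold change of OB over ODR at day 1 (vertical) against the mean of both group levels on the log2(value + 1) scale (horizontal), 1 point per gene, for the 12227 genes tested. The 78 called higher genes (red) lie mostly at low and middle levels, with Kdm2b, Nefm and Vgf at higher ones, and the 29 lower genes (blue) show smaller differences.

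The largest fitted difference of the day among the named genes was in Cyp26a1, the enzyme that clears retinoic acid from embryonic tissues (ENSMUSG00000024987, chr19:37697798-37701536, plus strand, mm10). It had values of 280 and 188 in the OB libraries, against 0 and 1 in the ODR libraries. The gene was near the bottom of the scale in both ODR libraries and well above it in both OB libraries. The log2 fold change was 7.35 ± 0.55 (limma adjusted p = 4.27e-07), on a scale where the 1 added before the log sets the size at such low values. Its rank against Kdm2b is not known, because both OB values of Kdm2b are at the ceiling. Cyp26a1 was listed at 0 in every library of at least 3 other groups of the fit, which keeps its estimated spread small, and in the 4 libraries alone its adjusted p was 0.0689. Its promoter is shown because it holds matches to the half-site of retinoic acid receptors, and those of Sox1 and Nkx6-1 as examples from the neural factors described next. Capitals mark each CpG, the letters that CXXC proteins bind, in the RefSeq sequence (GRCm38.p6), 5′ to 3′ on the gene's own strand. Each window runs from 250 bases before to 50 after a start that can differ from that of the GENCODE gene coordinates. Most of the Sox1 window and all of the Nkx6-1 window lie inside those gene coordinates. The windows are chr19:37697558-37697857 (plus) for Cyp26a1, chr8:12395269-12395568 (plus) for Sox1 and chr5:101664662-101664961 (minus) for Nkx6-1.
Cyp26a1: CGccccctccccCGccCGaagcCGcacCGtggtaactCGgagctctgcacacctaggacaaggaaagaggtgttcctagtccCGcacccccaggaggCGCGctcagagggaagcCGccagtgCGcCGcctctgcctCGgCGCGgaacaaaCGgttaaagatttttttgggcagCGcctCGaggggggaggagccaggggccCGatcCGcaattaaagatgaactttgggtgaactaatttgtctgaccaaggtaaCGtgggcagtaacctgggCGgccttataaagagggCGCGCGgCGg
Sox1: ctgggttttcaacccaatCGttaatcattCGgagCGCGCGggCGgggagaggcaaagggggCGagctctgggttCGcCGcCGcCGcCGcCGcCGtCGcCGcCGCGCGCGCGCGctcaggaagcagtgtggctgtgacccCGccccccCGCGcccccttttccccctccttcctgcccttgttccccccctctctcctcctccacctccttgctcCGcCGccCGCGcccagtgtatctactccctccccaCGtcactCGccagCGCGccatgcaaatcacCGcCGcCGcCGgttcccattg
Nkx6-1: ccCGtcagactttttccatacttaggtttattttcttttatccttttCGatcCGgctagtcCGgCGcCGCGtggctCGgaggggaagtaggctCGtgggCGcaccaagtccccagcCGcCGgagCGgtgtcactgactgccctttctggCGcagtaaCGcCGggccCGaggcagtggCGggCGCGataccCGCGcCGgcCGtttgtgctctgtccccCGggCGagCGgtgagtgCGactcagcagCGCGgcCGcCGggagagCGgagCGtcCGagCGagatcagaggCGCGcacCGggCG

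These windows hold 26, 37 and 40 CpG for Cyp26a1, Sox1 and Nkx6-1. As many or more occur in 16.9%, 5.58% and 3.91% of the 32851 mouse promoter windows in the table, whose median is 7. The half-site AGTTCA was searched on both strands, and so was the variant GGTTCA. The Cyp26a1 window has 2 matches, both to AGTTCA on the opposite strand, and 22.9% of all windows hold at least 1 match. The 2 matches begin 32 and 21 bases before the start used for this window. A match is a description of the letters and no measure of binding. A promoter entry was found for 54 of the 78 higher genes (69.2%), too few for a comparison of CpG between groups of genes.

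Cyp26b1, a second enzyme that breaks down retinoic acid, rose as well. It had 232 and 161 in the OB libraries, against 72 and 50 in the ODR libraries, without overlap. The difference was 1.67 ± 0.32 (limma adjusted p = 0.0145), and the highest adjusted p without 1 of the 4 libraries was 0.281. These 2 enzymes were the called members among 16 retinoic acid genes kept of 21 in the table, where 0.638% of all genes tested were called higher, and none was called lower. Cyp26a1 reached 10 only in the OB libraries, so it had to differ to be kept. The list median was 0.54, with 7 members, Cyp26a1 among them, higher and 3 lower without overlap. Over all genes tested these shares were 19.5% and 22.6%. Aldh1a3, a retinaldehyde dehydrogenase, had 65 and 41 in OB, against 28 and 22 in ODR. Rdh10, which makes retinaldehyde, had 116 and 168 in OB, against 64 and 78 in ODR. Neither passed the test. Rarb, a receptor and itself a known target of the acid, had 20 and 24 in OB, against 54 and 63 in ODR (adjusted p = 0.281). Aldh1a3, Rdh10 and Rarb were chosen for mention after their values were seen.

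Several transcription factors of the neural plate and neural tube were called. Of 34 listed, 15 were kept and 5 were called higher, Sox1, Sox21, Otx1, Nkx6-1 and Pou3f3, with none lower, where 0.638% of all genes tested were called higher. Libraries did not overlap in 10 of the 15, all higher in OB, where 19.5% of all genes tested were higher without overlap. The list median was 0.79, and 3 of the 15 reached 10 only in OB libraries, so that they had to differ to be kept. Those 3 are Sox1, Sox21 and Otx1, which are among the 5 called. Sox1 (chr8:12395295-12400126, plus strand) had 120 and 50 in the OB libraries, against 3 and 1 in the ODR libraries. Both OB values exceed both ODR values, and the OB libraries themselves differ from each other more than the ODR libraries do in absolute value. Its log2 fold change was 4.80 ± 0.76 (limma adjusted p = 0.00318, and at most 0.0943 without 1 of the 4 libraries).

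Nkx6-1, a factor of ventral neural tube progenitors, had 54 and 37 in OB, against 10 and 6 in ODR, a difference of 2.38 ± 0.51 (limma adjusted p = 0.0308). Pou3f3, a POU factor of the forebrain, had 81 and 65 in OB, against 15 and 16 in ODR, a difference of 2.16 ± 0.48 (adjusted p = 0.0383). Both lost the call without any 1 of the 4 libraries, with adjusted p up to 0.341 for Nkx6-1 and 0.363 for Pou3f3. Otx1, a forebrain homeobox factor, had 27 and 13 in OB, against 1 and 0 in ODR, and Sox21, which is found in neural progenitors, had 14 and 13 in OB, against 1 and 1 in ODR. Levels of Otx1 and Sox21 were low in both groups. Sox3, a close relative of Sox1, had 238 and 150 in OB, against 42 and 13 in ODR, and just missed the threshold (adjusted p = 0.0655). The intermediate filament Nes, with 766 and 700 in OB, against 708 and 697 in ODR, overlapped between the groups. Nkx2-2, Olig2, Neurog1, Hes5 and Six3 were listed at 0 in all 4 libraries. Sox3 and Nes were picked after their values were seen.

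**Figure D2:**
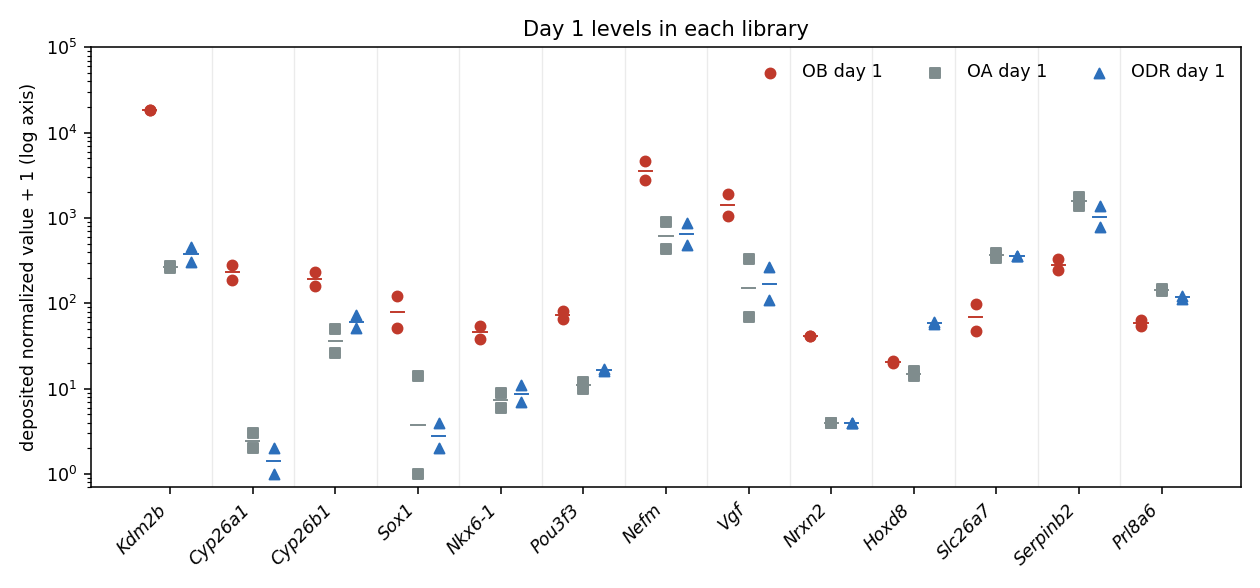
Deposited normalized value plus 1 (vertical, log axis) of 13 genes (horizontal) in each day 1 library of OB (red circles), OA (grey squares) and ODR (blue triangles), with bars at the mean of the logs. In the first 9 genes both OB libraries lie above both ODR libraries, and in the last 4 both lie below.

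Among 34 genes of the neuronal cytoskeleton and of regulated secretion, 21 were kept and 2 were called, both higher, where 0.638% of all genes tested were. Without overlap, 8 of the 21 were higher and 4 lower, where 19.5% and 22.6% of all genes tested were. Nefm (chr14:68082590-68124846, minus strand) had 4628 and 2805 in the OB libraries, against 865 and 478 in the ODR libraries. The groups do not overlap, and replicate 1 was the higher library in both. The difference was 2.48 ± 0.39 (limma adjusted p = 0.00318, and at most 0.0943 without 1 library). Vgf, a neurosecretory peptide precursor, had 1894 and 1046 in OB, against 263 and 108 in ODR, again without overlap. It differed by 3.05 ± 0.53 (adjusted p = 0.00662, and at most 0.16 without 1 library). Nefl, the light neurofilament subunit, had 2886 and 1636 in OB, against 358 and 191 in ODR, yet missed the threshold (adjusted p = 0.0908). Other genes of the list were not called. Map2, a dendritic microtubule protein, had 2545 and 2354 in OB, against 2420 and 2222 in ODR, and Gap43, a growth cone protein, had 3006 and 3168 in OB, against 5612 and 4213 in ODR (adjusted p = 0.88). Dcx, which marks migrating neurons, was listed at 0 in all 4, and the list median was 0.27. Nefl, Map2 and Gap43 were named after their values were seen.

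**Figure D3:**
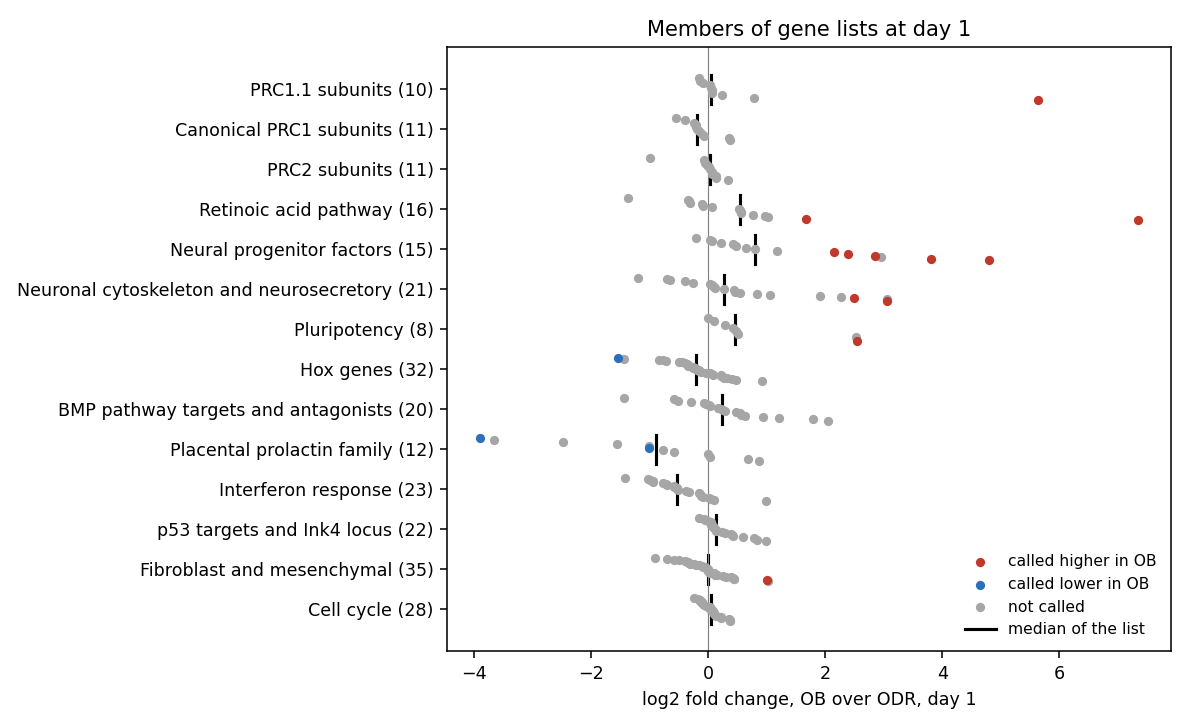
Log2 fold change of OB over ODR at day 1 (horizontal) of the kept members of 14 gene lists (vertical, number kept in parentheses), called higher in red, called lower in blue and not called in grey, with the list median as a black line. Called members are spread over several lists, 5 of them neural progenitor factors, and the cell cycle list lies close to 0.

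Other large increases were in genes outside these lists or alone in theirs. Nrxn2, a presynaptic adhesion protein, had 41 and 40 in OB, against 3 and 3 in ODR. Its libraries agreed within each group, and the difference of 3.37 ± 0.29 (limma adjusted p = 1.59e-06) kept its call in every alternative in which it was tested. Fut9, the fucosyltransferase that makes the stem cell surface antigen SSEA-1, had 51 and 34 in OB and was listed at 0 in both ODR libraries, so no fold is given (adjusted p = 0.00318). Foxd3, a forkhead factor of neural crest and pluripotent cells, had 39 and 40 in OB, against 1 and 3 in ODR. It was the called gene among 7 neural crest, glial and melanocyte markers kept. The summed values of all 10 in the table were 207 and 225 in OB, against 163 and 149 in ODR. Foxq1, another forkhead factor, had 54 and 48 in OB, against 1 and 2 in ODR. Tfap2e, a factor of the AP-2 family, had 50 and 19 in OB, against 1 and 1 in ODR. Nrxn2, Fut9, Foxd3, Foxq1 and Tfap2e reached 10 only in the OB libraries, so their groups had to be apart for them to be kept.

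Further higher genes code for surface and signalling proteins. Cdh4, a cadherin, had 202 and 85 in OB, against 27 and 4 in ODR. Ephb1, a receptor for B-type ephrins, had 126 and 47 in OB, against 13 and 5 in ODR. Ecel1, a membrane metalloprotease of neurons, had 84 and 29 in OB, against 6 and 0 in ODR. In each of the 3, replicate 1 was the higher OB library and the groups were apart, with log2 fold changes of 3.48 for Cdh4, 3.09 for Ephb1 and 4.25 for Ecel1. Ecel1 reached 10 only in the OB libraries, so its groups had to be apart for it to be kept. Slc35d3, of the nucleotide sugar transporter family, had 33 and 47 in OB, against 3 and 3 in ODR, and Tbc1d30, of a family of Rab regulators, had 26 and 44 in OB, against 1 and 3 in ODR. Cited1, a transcriptional coactivator and the called gene among 10 endoderm genes kept, had 77 and 30 in OB, against 6 and 3 in ODR. L1td1, an RNA-binding protein of pluripotent cells, had 37 and 17 in OB, against 3 and 4 in ODR. It was the called gene of 8 pluripotency genes kept of 27, with a list median of 0.45, and Lin28a, Sall4, Tdgf1, Prdm14, Eras and Dppa4 were listed at 0 in all 4 libraries. Slc35d3, Tbc1d30, Cited1 and L1td1 also reached 10 only in the OB libraries.

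A collagen and a secreted binding protein were each the called gene of their list. Col5a2, a fibrillar collagen chain, had 18690 and 18690 in OB, against 9314 and 9314 in ODR. Those are the ceiling and the step below it, so the size of its difference, 1.00 ± 0.17 (limma adjusted p = 0.00428), is the distance between these steps. It belongs to 35 fibroblast and mesenchymal genes, all kept, with a median of 0.00. Igfbp5, a secreted binding protein of insulin-like growth factors, had 1348 and 676 in OB, against 443 and 298 in ODR (1.39 ± 0.31, adjusted p = 0.0406, and at most 0.648 without 1 library). It belongs to 15 senescence-linked secreted factors kept. Vim and Col1a2, marker genes of fibroblasts, were at the ceiling in all 4 libraries.

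Slc26a7, an anion exchanger, had the largest decrease among the named genes detected in both groups. It had 47 and 97 in the OB libraries, against 356 and 354 in the ODR libraries. Both ODR libraries are above both OB libraries, and the OB libraries differ from each other more. The difference was -2.38 ± 0.38 (limma adjusted p = 0.00355, and at most 0.113 without 1 library). Serpinb2, an inhibitor of plasminogen activators, had 242 and 330 in OB, against 779 and 1368 in ODR (-1.87 ± 0.41, adjusted p = 0.0375). Cyp39a1, an oxysterol hydroxylase of bile acid synthesis, had 22 and 22 in OB, against 64 and 91 in ODR. Cntfr, the receptor subunit for ciliary neurotrophic factor, had 16 and 22 in OB, against 60 and 57 in ODR. Their groups do not overlap, and Serpinb2, Cyp39a1 and Cntfr had adjusted p up to 0.436, 0.432 and 0.431 without 1 of the 4 libraries.

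Smaller decreases had close replicates. Marveld1, of the MARVEL domain family, had 176 and 179 in OB, against 311 and 306 in ODR. H1f0, the linker histone H1.0, had 388 and 399 in OB, against 608 and 662 in ODR. Slitrk6, a leucine-rich repeat membrane protein, had 152 and 168 in OB, against 272 and 282 in ODR. The spread within each of these groups is a small part of the gap between them, which was -0.79 ± 0.13 for Marveld1, -0.69 ± 0.13 for H1f0 and -0.79 ± 0.14 for Slitrk6 (limma adjusted p = 0.00318, 0.0125 and 0.00851). Tlr3, a receptor for double-stranded RNA, had 50 and 37 in OB, against 84 and 83 in ODR (-0.94 ± 0.21, adjusted p = 0.0383). Epn2, an endocytic adaptor, Armcx2, Cc2d1b and Ccdc68 were called lower too, with differences of -0.68, -0.98, -1.0 and -1.54.

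Hoxd8 was the called gene of 32 Hox genes kept, which set position along the body axis. It had 20 and 19 in OB, against 60 and 57 in ODR, with close replicates and no overlap (-1.54 ± 0.24, limma adjusted p = 0.00318, and at most 0.0527 without 1 library). The median of the list was -0.20, and 9 members lay lower and 3 higher without overlap, where 22.6% and 19.5% of all genes tested did.

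Prl8a6 and Prl8a8, hormone genes of the placental prolactin cluster, were the called members of 12 prolactin genes kept of 20, with a median of -0.89. Both were called lower, where 0.237% of all genes tested were. Prl8a6 (chr13:27432681-27438688, minus strand) had 53 and 63 in OB, against 112 and 122 in ODR (-1.0 ± 0.08, limma adjusted p = 1.59e-06). Prl8a8 (chr13:27506968-27513217, minus strand) was listed at 0 in both OB libraries, against 16 and 12 in ODR. Neither gene's groups overlap, and both genes are at 0 in whole groups of later days, which makes the pooled spread small. Prl8a8 reached 10 only in the ODR libraries, so it had to differ to be kept. In the 4 libraries alone Prl8a6 had an adjusted p of 0.172. The family has many related members, and whether reads were split among them was not tested, so the values of single members are uncertain. Another member, Prl8a9, named after its values were seen, had higher values (34 and 42 in OB, against 18 and 23 in ODR, adjusted p = 0.895). Their promoters are shown as examples of called lower genes, with the same build, strand rule and capitals, at chr13:27438639-27438938 for Prl8a6 and chr13:27513168-27513467 for Prl8a8, both minus strand.
Prl8a6: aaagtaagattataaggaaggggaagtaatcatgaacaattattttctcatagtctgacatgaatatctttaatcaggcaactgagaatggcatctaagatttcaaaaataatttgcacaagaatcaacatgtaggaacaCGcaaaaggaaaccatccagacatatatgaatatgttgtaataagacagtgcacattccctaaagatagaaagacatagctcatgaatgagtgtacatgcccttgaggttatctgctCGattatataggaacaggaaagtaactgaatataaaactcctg
Prl8a8: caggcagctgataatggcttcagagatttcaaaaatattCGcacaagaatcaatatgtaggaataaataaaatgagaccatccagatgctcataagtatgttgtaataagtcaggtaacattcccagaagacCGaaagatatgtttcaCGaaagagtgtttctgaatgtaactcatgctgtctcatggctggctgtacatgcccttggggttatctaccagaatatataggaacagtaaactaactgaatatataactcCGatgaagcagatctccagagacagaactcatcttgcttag

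They hold 2 and 4 CpG, and 85.9% and 68.6% of all promoter windows hold at least as many. The windows shown were picked by gene, so differences in CpG between them describe these genes alone.

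In all, 15 of the 78 higher and 3 of the 29 lower genes belong to 1 of the 28 lists, and 16 lists had no called gene. Among 23 interferon response genes kept, 9 were lower and 1 higher without overlap, where 22.6% and 19.5% of all genes tested were, and the median was -0.53. The summed values of all 37 in the table overlapped, at 1696 and 1351 in OB, against 2466 and 1607 in ODR. Of 20 BMP pathway genes none was called, with a median of 0.23. The 4 trophoblast genes kept had a median of 1.18. Peg10, an imprinted gene of the placenta, had 1027 and 892 in OB, against 206 and 237 in ODR (limma adjusted p = 0.194). Eomes, a factor of trophoblast and primitive streak, had 124 and 84 in OB, against 24 and 30 in ODR (0.181). The cell cycle list (28 kept, median 0.05), p53 targets and the Ink4 locus (22, 0.13), immediate early and heat shock genes (22, 0.09) and glycolysis genes (20, -0.07) had none called, nor had serine and amino acid genes (15, 0.08) or epithelial genes (9, 0.12). Only 2 caudal and streak genes were kept, and T was listed at 0.

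Among markers of macrophages, endothelium, keratinocytes and muscle no gene was called. The summed values of all 13 macrophage and leukocyte markers in the table were 637 and 665 in OB, against 651 and 668 in ODR. Those of 11 endothelial markers were 808 and 819 in OB, against 655 and 585 in ODR, with Tie1 and Cldn5 listed at 0. The 10 keratinocyte markers summed to 53 and 38 in OB, against 58 and 35 in ODR, with Krt14, Krt15, Krt17 and Krt6a at 0. The 12 muscle markers summed to 291 and 520 in OB, against 294 and 473 in ODR. The 35 fibroblast genes summed to 123333 and 132239 in OB, against 123725 and 111610 in ODR, with several at the ceiling. The endothelial and neural crest sums moved with the higher genes, and their part in the result was not tested. The neural crest sum includes Foxd3, itself called higher, with 39 and 40 in OB, against 1 and 3 in ODR.

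The later libraries of the same labels enter the pooled spread behind the day 1 calls, which the day 6 and day 14 tests share, but not the day 1 fold changes. Of the 78 higher genes, 42 were called higher at day 6 (53.8%, where 5.32% of all genes were) and 2, Tox2 and Sptb, lower. At day 14, 18 were called higher (23.1%, where 29.1% of all genes were) and 29 lower (37.2%, where 28.7% were). Of the 29 lower genes, 10 were called lower at day 6 (34.5%, where 5.29% of all genes were) and 1 higher (3.45%, where 5.32% were). By day 14, 10 were called lower (34.5%, where 28.7% of all genes were) and 3 higher (10.3%, where 29.1% were). In all, 15 genes were called higher at all 3 days, among them Kdm2b, Cyp26a1, Cited1, L1td1, Ecel1 and Tbc1d30. Another 18, with Sox1, Sox21, Nkx6-1, Foxq1 and Ephb1, were higher at days 1 and 6 and not called at day 14, and 9, with Nefm, Pou3f3 and Igfbp5, were higher at days 1 and 6 and lower at day 14. Lower at all 3 days were Slc26a7, Tlr3, Cc2d1b, Ctsc and Rnpepl1.

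**Figure D4:**
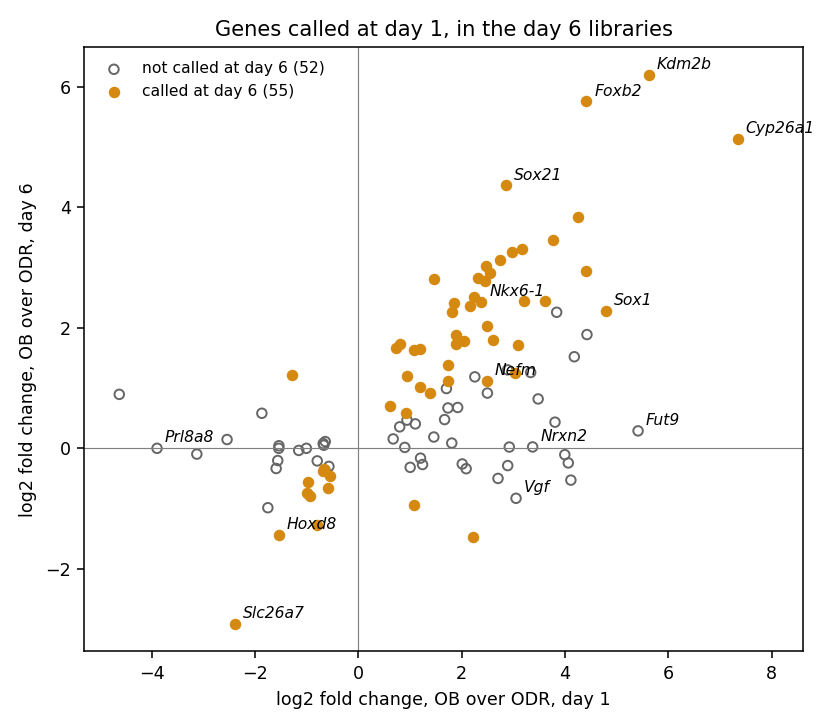
Log2 fold change of OB over ODR at day 6 (vertical) against day 1 (horizontal) for the 107 genes called at day 1, filled where called at day 6 too. The 55 filled points mostly have the same sign at both days. Differences were smaller at day 6 in Cyp26a1, Sox1 and Nefm and larger in Sox21 and Slc26a7, and Vgf, Nrxn2 and Fut9 lie near the horizontal line.

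Cyp26a1 averaged 234, 35.2 and 19.3 at days 1, 6 and 14 in OB, and in ODR 0.5 at day 1 and 0 at days 6 and 14. OB and ODR libraries do not overlap at any of the 3 days. With BMP4 at day 6 it had 152 and 108 in OB, against 6 in the ODR library. At day 9 without BMP4, in single libraries of combinations whose labels are also not expanded, it had 84 in ODB, against 1 in ODDR, where Kdm2b was 18690 in ODB, against 452 in ODDR.

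Sox1 took another course. In OB it averaged 85 at day 1, 652.5 at day 6 and 408 at day 14, and in ODR 2, 134 and 516. The log2 difference was 2.28 at day 6 (limma adjusted p = 0.0315) and -0.35 at day 14 (0.65), so that ODR libraries, low at day 1, held similar values by day 14. Nkx6-1 in OB had 54 and 37 at day 1, 53 to 116 at day 6 and 44 to 84 at day 14, and in ODR 10 and 6, then 11 and 14, then 73 to 92. Its day 14 libraries overlap.

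Vgf averaged 1470, 1146 and 416 over the 3 days in OB, and 186, 2036 and 1692 in ODR. Its day 6 difference minus its day 1 difference was -3.88 ± 0.70 (limma adjusted p = 0.0139). At day 14 it was called lower in OB, at -2.08. Over all genes 56 had such a change of difference (0.458%), and in 27 of them it was negative (0.221%). These include 9 of the 78 higher genes, each with a smaller or opposite difference at day 6. The day 1 difference that called the 78 genes enters this contrast, so their selection favours a negative value. Nefm averaged 3716.5, 1626 and 521 in OB, and 672, 778 and 899 in ODR, with differences of 1.11 at day 6 and -0.80 at day 14, both called. Slc26a7 averaged 72, 24.2 and 38.7 in OB, and 355, 183 and 234 in ODR, and was called lower at each day.

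**Figure D5:**
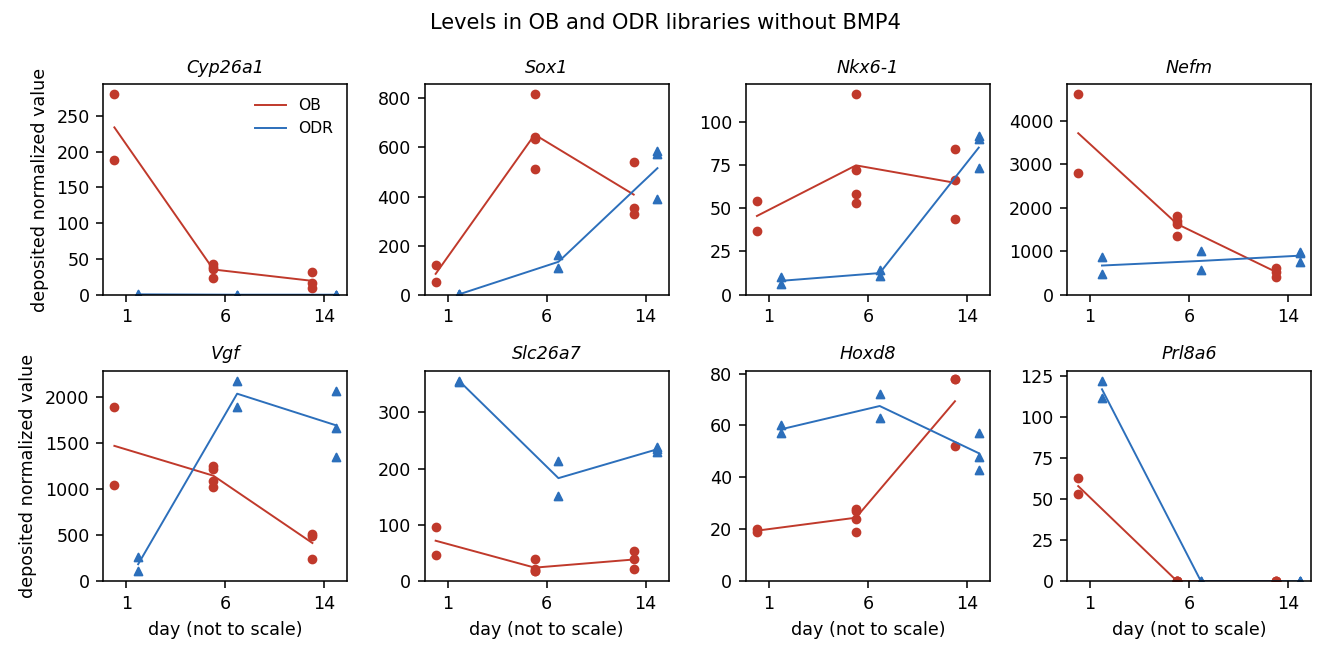
Deposited normalized value (vertical, from 0) of 8 genes in each OB (red circles) and ODR (blue triangles) library without BMP4 at days 1, 6 and 14 (horizontal, not to scale), with lines through the means and the ODR day 6 library deposited under 2 labels left out. Cyp26a1 is highest at day 1 in OB and near 0 in ODR, Sox1 and Nkx6-1 reach the OB levels in ODR by day 14, and Slc26a7 is lower in OB at each day.

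Hoxd8 was lower in OB at day 6 too, with 19 to 28 in OB, against 72 and 63 in ODR (-1.44, limma adjusted p = 0.000274). At day 14 it had 78, 52 and 78 in OB, against 57, 43 and 48 in ODR, and the call was gone (0.47, adjusted p = 0.0511). Without BMP4, Prl8a6 was listed at 0 in each OB and ODR library of the later days. In the single libraries labelled mESC and MEF, taken as mouse embryonic stem cells and embryonic fibroblasts, mESC values exceeded MEF values in 40 of the 78 higher genes and in 8 of the 29 lower genes, where 48.1% of all genes tested did so. With 1 library each, this is a description.

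The OA libraries of day 1, in which Kdm2a and not Kdm2b was raised, give the same genes beside both. Kdm2a had 18690 and 9294 in OA, against 1254 and 814 in ODR, and Kdm2b had 270 and 259 in OA, against 308 and 460 in ODR. The Kdm2a values in OA are the ceiling and the step below it. Its difference of OA over ODR, 3.70 ± 0.93, did not pass the test (limma adjusted p = 0.242). OB against OA called 177 genes (1.45%), 135 higher (1.1%) and 42 lower (0.344%). OA against ODR called 7 (0.0573%), 2 higher (0.0164%) and 5 lower (0.0409%). These comparisons share libraries with OB against ODR and with each other, so the values are only set side by side. Cyp26a1 had 280 and 188 in OB and 1 and 2 in OA, against 0 and 1 in ODR. Nefm had 887 and 432 in OA, Vgf 331 and 68, Nkx6-1 5 and 8, and Slc26a7 343 and 390. All of these overlap or border the ODR values and lie apart from the OB values.

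In other genes OA lay elsewhere. Hoxd8 had 20 and 19 in OB and 13 and 15 in OA, against 60 and 57 in ODR, with a difference of -1.99 for OA over ODR (limma adjusted p = 0.000653). Fut9 had 51 and 34 in OB and 15 and 21 in OA, against 0 and 0 in ODR. Tfap2e had 50 and 19 in OB and 29 and 6 in OA, against 1 and 1 in ODR. Cited1 had 77 and 30 in OB and 19 and 13 in OA, against 6 and 3 in ODR, and L1td1 had 37 and 17 in OB and 12 and 16 in OA, against 3 and 4 in ODR. In these last 4 genes OA values lay above both ODR values without a call for OA over ODR, and Tfap2e overlapped between OB and OA.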

How the data were processed

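Messenger RNA was sequenced after poly-A selection, per the labels. The authors deposited 1 table of normalized values per gene, rounded to whole numbers and treated as a score because they are not counts. The submitters' processing notes name bcl2fastq, Bowtie2 2.2.5, RSEM and mm10. Their roles and the normalization step are not given in the sources used here, so depth and counting error are unknown.

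Values were taken as log2(value + 1). With limma 3.58.1 (R 4.3.3), 1 mean per group and no replicate block, a linear model was made of 27 libraries in 11 groups (16 residual degrees of freedom), without the library deposited under 2 labels. The groups are OB, ODR and OA at days 1, 6 and 14 without BMP4, and OB and ODR at day 6 with BMP4. The spread is pooled over groups. Genes with an adjusted p below 0.05 (Benjamini-Hochberg over 12227 genes, two-sided) were called. The script was tested on simulated data. Coordinates are from GENCODE vM21 and promoters from RefSeq.

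Named genes are Kdm2b, Kdm2a, Pou5f1, Cyp26a1, Sox1, Nefm, PRC1.1 subunits, the 14 largest called changes in each direction without overlap and with a higher group mean of at least 30, and called list members. Predicted genes were left out. In lists with no called gene, up to 3 with the largest mean may be given. The genes and 28 lists were chosen with earlier results of these data known. In all, 18 alternatives were tried.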

Additional observations from a re-analysis of the deposited data

Results flagged for a closer look

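For 5 named genes the difference of OB minus ODR at day 6 differed from that at day 1 (limma, Benjamini-Hochberg adjusted over all genes). The day 1 differences that called these genes enter the contrast, so their selection favours such a change. The day 6 difference minus the day 1 difference was -3.35 for Nrxn2 (adjusted p = 0.000229), -3.88 for Vgf (0.0139) and -1.32 for Col5a2 (0.00811). At day 1 the differences were 3.37 for Nrxn2, 3.05 for Vgf and 1.00 for Col5a2, which sat on the top step of the scale in OB and on the step below it in ODR, and at day 6 they were 0.02, -0.83 and -0.32. For Prl8a6 it was 1.00 and for Prl8a8 3.89 (both 0.000229), where all day 6 libraries of both groups without BMP4 are at 0, so that no difference could be seen at day 6.

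In 4 of the 50 named genes, 1 of the 4 OB libraries of day 6 stood apart from the other 3 (Dixon's gap test). Replicate 1 was highest for H1f0, at 773 where the others had 671 to 686, and for L1td1, at 126 where the others had 62 to 65. Replicate 2 was highest for Slc26a7, at 39 where the others had 18 to 21, and lowest for Usp7, at 620 where the others had 697 to 711. Chance flags about 1 in 20 groups, so some of these flags may be chance. These libraries enter the day 6 values and the pooled spread.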

How the results depend on the processing

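Pseudocounts of 0.5 and 10, other filters, size factor rescaling, limma's trend and robust options and other sets of libraries were tried. Counts of genes higher and lower in OB than in ODR at day 1 (78 and 29 as reported) were 129 and 65 with a pseudocount of 10, 39 and 17 with a filter of 50, 7 and 6 with the 4 libraries alone, 19 and 5 with day 1 libraries alone, 194 and 68 without day 14, and 177 and 72 without OA day 14 replicate 2. Lower genes were 56 with no filter. Leaving out 1 of the 4 libraries gave 10 to 62 higher and 3 to 41 lower genes. The lone library is then assumed to vary like the other groups. With the filter of 50, 24 of the higher genes were called higher at day 6, 9 at day 14, and 18 lower at day 14.

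Genes whose difference changed between day 1 and day 6 (56) were 113 with a pseudocount of 10, 32 with the filter of 50, 273 without day 14, 253 without OA day 14 replicate 2, 121 with the shared library kept as ODR, and 24 to 44 without 1 library. Genes that differ between OB and OA (177) were 278, 114, 405 and 367 for the first 4 of these settings, 19 with day 1 alone, and 35 to 174 without 1 library. Those that differ between OA and ODR (7) were 35 with no filter, 3 with the filter of 50, 27 without day 14, 20 without OA day 14 replicate 2, and 5 to 9 without 1 library. A filter of 50 tests fewer genes. For the other changes the cause was not tested.

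Same-numbered libraries of day 1 deviated together (correlation of deviations 0.33 for OB and ODR), but with 2 pairs and no label that ties a number to a batch they share only a number. With a replicate block for day 1, 97 genes were higher and 37 lower, which include all 78 and 29.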
